A study of Mus musculus with 30 samples.

Results

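The comparison was of mouse hearts at embryonic day 12.5 (E12.5) with mouse hearts at embryonic day 10.5 (E10.5), across all genes. All columns of the count table that the labels give to these ages were used, which made 3 libraries of each age and 6 of the 30 libraries of the series. All hearts were wild type and untreated, and the sources used here name neither strain nor sex. RNA from heart tissue was selected for poly(A) tails with oligo-T beads and sequenced. The labels do not say whether a library came from 1 heart or from a pool, so the p-values measure the spread between libraries only. For each gene that spread was estimated within all 10 ages, from the 30 libraries of the series, not from these 6 alone. Of the 48820 genes in the table, 19280 had enough counts to be tested. Levels are in CPM, the counts of a gene per 1000000 counts of its library after scaling between libraries, given by library in the order of replicates 1, 2 and 3 or as mean ± SD (n = 3). Changes are log2 of E12.5 over E10.5 ± SE, so that a positive value is higher at E12.5. The words rose and fell are kept for genes below an adjusted p of 0.05 (Benjamini-Hochberg, over all genes tested) by the quasi-likelihood test of edgeR.

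At E10.5 the mouse heart is a looped tube whose thin muscle wall carries the trabeculae, the muscular ridges that line the lumen, and is separated from the endocardium by cardiac jelly, a hyaluronan-rich matrix. Between this age and E12.5 the epicardium spreads over the surface, cushion mesenchyme fills the valve-forming regions, septation advances and the compact wall thickens. Fibroblasts, the earliest coronary vessels, macrophages and neural crest derivatives appear or expand, and the circulating blood begins to shift from primitive red cells of the yolk sac to definitive cells of the fetal liver.

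The 6 libraries held between 23164934 and 35333714 counts. The cardiomyocyte marker list holds troponins, cardiac myosins, Nkx2-5 and the titin gene Ttn. It summed to 30470 to 47390 CPM at E10.5 and 35290 to 36050 CPM at E12.5, and none of its 13 members was at 0. Ttn, whose levels are given below, was a large part of these sums, so they do not show the direction of the other members. Of the 13, 5 rose and 1, Ttn, fell. Replicate 2 of E10.5 stood apart from the other E10.5 libraries. Rn7sk, a small nuclear RNA without a poly(A) tail, took 3.22% of its counts against 0.611% and 0.567%, and protein-coding genes 82.9% against 91.0% and 91.7%. On the component with 15.9% of the variance of the 6 libraries it scored -59.4, with 37.0 and 26.7 for the other E10.5 libraries, while the component with 63.7% separated the ages. Of the genes tested, 5981 (31.0%) rose, among them 2095 (10.9%) by 2-fold or more, and 4695 (24.4%) fell, among them 1148 (5.95%) by 2-fold or more. The median log2 change was 0.04. These percentages are the background for every count of list members below. Without E10.5 replicate 2, 5937 of 19699 genes (30.1%) rose and 4484 (22.8%) fell, and in a fit of the 6 libraries alone 4413 of 17512 (25.2%) rose and 4650 (26.6%) fell. Of the genes called with all libraries, 90.2% of those that rose and 86.8% of those that fell were called in the same direction without it, and 0 in the opposite direction.

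Among genes with at least 10 CPM in the higher group and no overlap between the ages, Fbln5 and Eln had the largest rises, and 5 of the 12 largest were on the collagen and matrix list. Fbln5, which encodes fibulin 5, an elastic fibre assembly protein (chr12:101746565-101819055, minus strand, GRCm38), stood at 0.84, 0.327 and 0.487 CPM at E10.5 and 97.3, 109.5 and 113 CPM at E12.5, a log2 change of 7.61 ± 0.30, adjusted p = 3.0e-15. Eln, the gene of tropoelastin itself (chr5:134702593-134747323, minus strand), stood at 3.58, 2.89 and 2.48 CPM at E10.5 and 259, 311 and 291 CPM at E12.5, a log2 change of 6.60 ± 0.27, adjusted p = 2.7e-15. In both genes all E12.5 libraries were far above all E10.5 libraries, replicate 2 included, and no overlap was a condition of this ranking. Sfrp2, a secreted modulator of Wnt signalling (chr3:83766321-83774316, plus strand), went from 0.771 ± 0.199 to 73.4 ± 3.12 CPM (log2 change 6.59 ± 0.18), and Mgp, the matrix Gla protein that inhibits calcification, from 0.512 ± 0.205 to 28.7 ± 2.24 CPM (log2 change 5.80 ± 0.22). The collagen VI chains Col6a6 and Col6a3 rose by 5.63 ± 0.17 and 5.31 ± 0.15 on the log2 scale, the latter to 124 ± 16.2 CPM. The other genes among the 12 largest rises were Lrrc17, a leucine-rich repeat protein, Tnxb (tenascin X), Thbs2 (thrombospondin 2), the small proteoglycan Lum (lumican), the microfibril protein Mfap4 and the adult beta globin Hbb-bs. Their log2 changes lay between 4.63 and 5.63. At E14.5 the levels of Fbln5 and Eln were 181 ± 11.1 and 939.7 ± 77.3 CPM. Of these 12 genes, 10 rose again from E12.5 to E14.5, 0 fell, and Lum and Hbb-bs did not pass the test. That step shares the E12.5 libraries, so its values are given side by side only. In bulk RNA, more cells of a type and more RNA per cell cannot be told apart, here and in all results that follow.

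By the same rule on level and overlap, the 12 largest falls had log2 changes from -3.52 to -2.29, and 2 of the 12 were on the let-7 list described below. Pklr, the pyruvate kinase of liver and red cells (chr3:89136142-89146784, plus strand), stood at 10.3, 8.54 and 11.4 CPM at E10.5 and 0.636, 0.781 and 1.20 CPM at E12.5, a log2 change of -3.52 ± 0.42, adjusted p = 1.9e-07. Mt2, a metallothionein that binds zinc and copper (chr8:94172664-94173568, plus strand), stood at 18.99, 29.6 and 24.7 CPM at E10.5 and 1.91, 2.10 and 2.63 CPM at E12.5, a log2 change of -3.46 ± 0.39, adjusted p = 1.3e-07. Trim71, an RNA-binding ubiquitin ligase of early embryonic cells (chr9:114507133-114564369, minus strand), stood at 33.0, 19.1 and 39.3 CPM at E10.5 and 3.16, 3.10 and 3.54 CPM at E12.5, a log2 change of -3.22 ± 0.26, adjusted p = 8.8e-11. The libraries of both ages did not overlap in any of them, as the rule required. Hapln1, which encodes the link protein that ties versican to hyaluronan (chr13:89539796-89611652, plus strand), had the highest E10.5 level of these 12 genes, with 521, 705 and 562 CPM at E10.5 and 83.6, 73.6 and 81.6 CPM at E12.5, a log2 change of -2.90 ± 0.14, adjusted p = 3.5e-16. Mylpf, a regulatory light chain of fast skeletal muscle, fell by 2.92 on the log2 scale, and replicate 2 was the highest E10.5 library, at 44.5 CPM against 19.1 and 24.6. Hemgn, a nuclear protein of blood progenitors and red cell precursors, went from 16.4 ± 3.4 to 2.61 ± 0.42 CPM, and Aldh1a1, an enzyme of retinoic acid synthesis, from 14 ± 3.60 to 2.41 ± 0.394 CPM. Among the other genes of the 12 largest falls were the RNA-binding protein Lin28b, Tmem56, a transmembrane protein, the carbonic anhydrase Car4 and the ubiquitin ligase adaptor Kbtbd8, with log2 changes from -2.92 to -2.29. From E12.5 to E14.5, 8 of the 12 genes fell further and 0 rose.

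**Figure D1:**
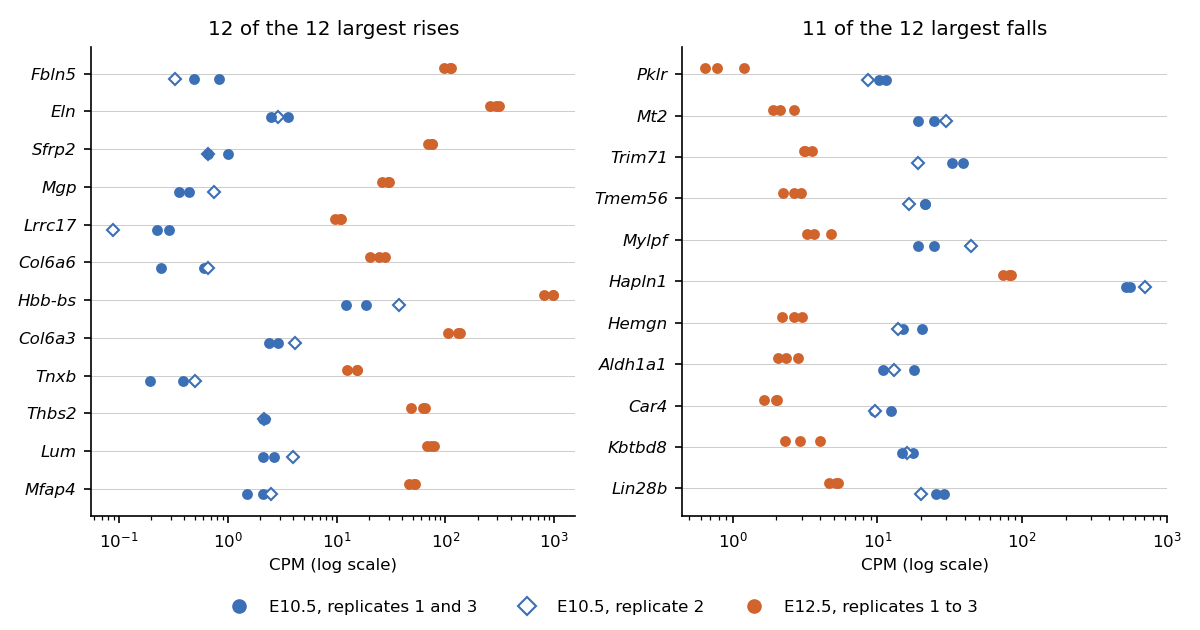
Level in each library of the 12 genes with the largest rise and 11 of the 12 with the largest fall, in CPM on a log axis. Filled blue points are replicates 1 and 3 of E10.5, open diamonds are E10.5 replicate 2 and orange points are the 3 libraries of E12.5; the ages do not overlap in any of the 23 genes shown, which the naming rule required.

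The interstitial matrix genes rose almost as a whole. In the collagen and matrix list, 26 of 28 tested members rose and 0 fell, with a median log2 change of 1.88, against 31.0% and 24.4% over all genes, and 21 rose at least 2-fold. Fn1 (fibronectin) and Tnc (tenascin C) were the members without a call. The summed level of the list was 4989 to 6509 CPM at E10.5 and 10440 to 11590 CPM at E12.5, without overlap. Col1a1, the main chain of collagen I, stood at 39.5, 25.9 and 32.8 CPM at E10.5 and 388, 492 and 469.5 CPM at E12.5, a log2 change of 3.78 ± 0.15, adjusted p = 1.7e-18. Col3a1, the chain of collagen III, was already at 421, 480.5 and 516 CPM at E10.5 and reached 1576, 1782 and 1776 CPM at E12.5, a log2 change of 1.86 ± 0.10, adjusted p = 5.3e-16. All E12.5 libraries exceeded all E10.5 libraries for both chains. Postn, which encodes periostin, a matrix protein of cushion mesenchyme and fibroblasts, stood at 105.4, 248 and 106 CPM at E10.5 and 364, 343 and 378 CPM at E12.5, a log2 change of 1.24 ± 0.21, adjusted p = 2.0e-05. Its highest E10.5 library was replicate 2, and without that library the log2 change was 1.78, adjusted p = 1.2e-15. At E14.5 the means of Col1a1, Col3a1 and Postn were 859, 2663 and 621 CPM.

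Basement membrane genes rose in the same direction but by less. In that list, 15 of 16 tested members rose and 0 fell, with a median log2 change of 0.72, and 3 rose at least 2-fold. Without E10.5 replicate 2, 15 rose and 1 fell, with a median of 0.56. Lama2, a laminin chain around muscle fibres, stood at 40.5, 39.2 and 44.1 CPM at E10.5 and 128, 135 and 137 CPM at E12.5, a log2 change of 1.69 ± 0.07, adjusted p = 5.8e-19. Lamb2 went from 45.2 ± 9.54 to 106 ± 7.94 CPM (log2 change 1.23 ± 0.11), and Col4a3, at the low level of 1.25 ± 0.19 CPM at E12.5, rose by 1.48 ± 0.30. The fibroblast marker list, which shares 7 genes with the matrix list, had 13 of 13 tested members higher, with a median of 2.06, and its summed level was 1329 to 1474 CPM at E10.5 and 4303 to 4798 CPM at E12.5. Dpt, the gene of dermatopontin, stood at 0.0646, 0.297 and 0 CPM at E10.5 and 3.13, 2.80 and 3.35 CPM at E12.5; replicate 2 held most of its few E10.5 counts, and its log2 change was 4.72 ± 0.33, or 6.62 without that library. Tcf21, a transcription factor of epicardium and fibroblast precursors, went from 10.4 ± 2.74 to 21.9 ± 2.35 CPM (log2 change 1.09 ± 0.15). Among mural and smooth muscle markers, 9 of 12 tested members rose and 3 fell, with a median log2 change of 0.66. Myh11, the smooth muscle myosin, stood at 1.52, 1.52 and 1.63 CPM at E10.5 and 14.8, 25.3 and 31.4 CPM at E12.5, and Pdgfrb, the receptor of mural cells, rose by 1.78 ± 0.09. Kcnj8, a channel subunit of pericytes, rose by 2.80 ± 0.18. Acta2 and Tagln, smooth muscle genes that the early myocardium also uses, fell from 1423 ± 164 to 937 ± 59.9 CPM and from 303 ± 9.04 to 201 ± 16.4 CPM.

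**Figure D2:**
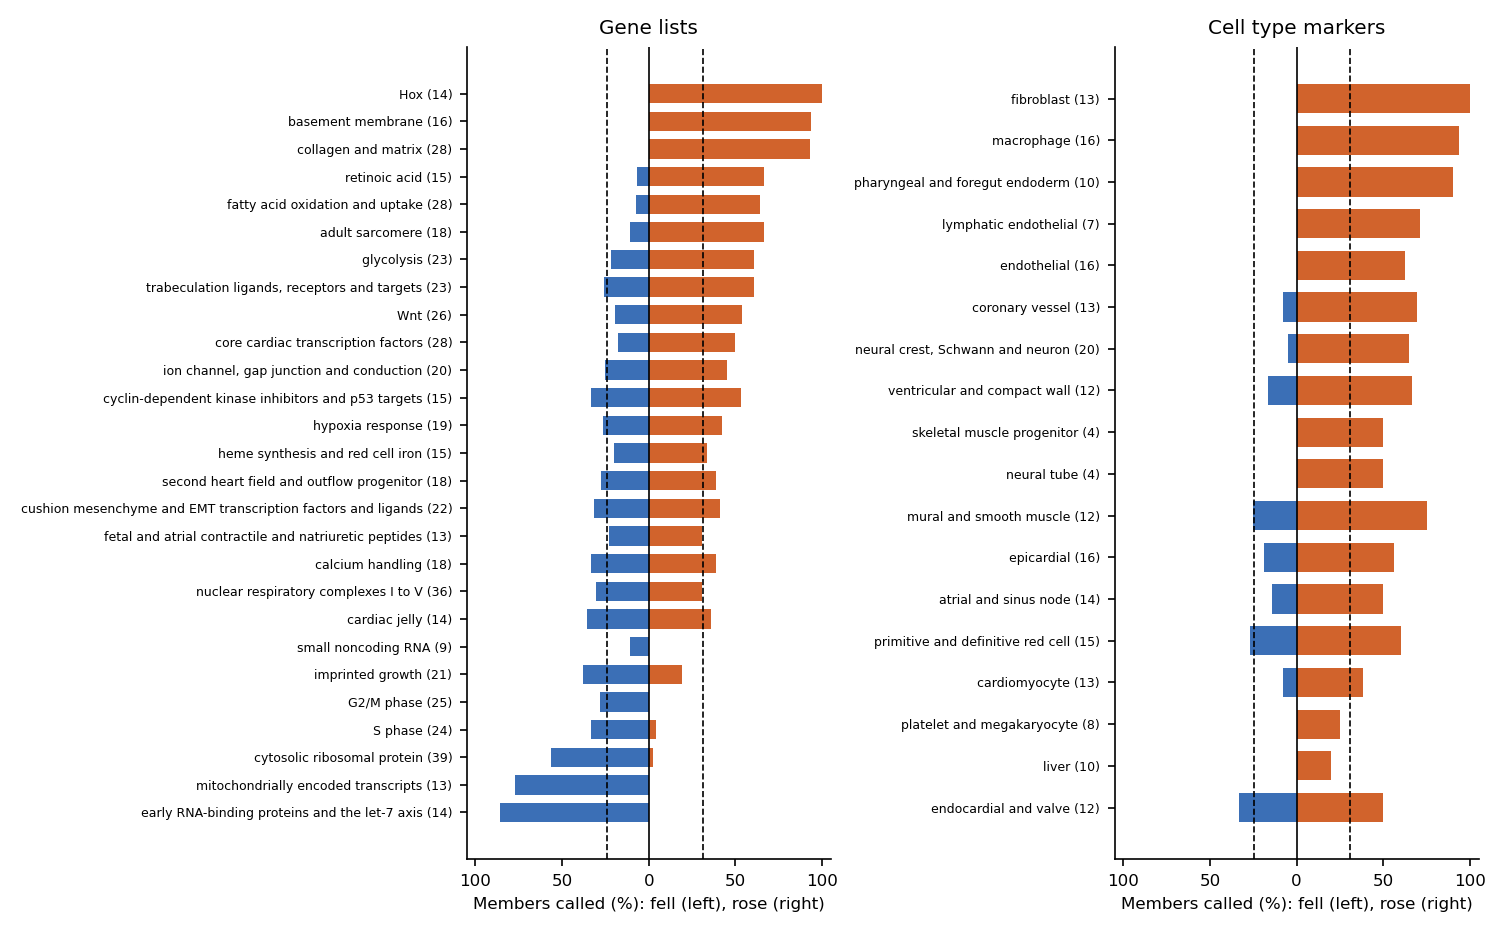
Percentage of the tested members of each list that rose (orange, right of 0) or fell (blue, left of 0) from E10.5 to E12.5, for gene lists on the left and cell type markers on the right, with the number of tested members in brackets. Dashed lines mark the shares of all tested genes, 31.0% that rose and 24.4% that fell. Basement membrane, matrix, fibroblast and macrophage lists lie far to the right and the let-7 axis list far to the left. The Hox and foregut endoderm lists also lie far to the right, but members that passed the filter through E12.5 alone had to differ.

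Cardiac jelly genes moved both ways: 5 of 14 tested members rose and 5 fell, with a median log2 change of 0.01, against 31.0% and 24.4% over all genes. The jelly is made of hyaluronan, spun out by the synthase Has2, and of the proteoglycan versican (Vcan), held to it by Hapln1; proteases of the Adamts family cleave versican. Has2 stood at 84.0, 106 and 96.5 CPM at E10.5 and 23.1, 22.6 and 24.5 CPM at E12.5, a log2 change of -2.03 ± 0.15, adjusted p = 2.5e-12. Vcan stood at 2461, 2739 and 2561 CPM at E10.5 and 1386, 1242 and 1324 CPM at E12.5, a log2 change of -0.97 ± 0.09, adjusted p = 1.7e-10. Hapln1 fell most, as given above, and in all 3 genes each E12.5 library was below each E10.5 library. Adamts1 rose from 63.9 ± 7.08 to 154 ± 5.43 CPM (log2 change 1.26 ± 0.11), Adamts5 from 8.26 ± 1.70 to 19.3 ± 2.34 CPM (log2 change 1.23 ± 0.14) and Adamts20 from 1.83 ± 0.389 to 3.69 ± 0.303 CPM (log2 change 1.02 ± 0.23). The summed level of the list was 3737 to 4117 CPM at E10.5 and 2100 to 2261 CPM at E12.5. At E14.5, Hapln1, Has2 and Vcan had means of 30.1, 12.7 and 978 CPM, and each fell again in that step.

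Cushion genes split. Cushion mesenchyme forms when endocardial cells undergo an epithelial-to-mesenchymal transition under Bmp and Tgf-beta signals from the muscle. Bmp2, the muscle-derived inducer, stood at 30, 26.4 and 26.5 CPM at E10.5 and 13.7, 13.2 and 12.1 CPM at E12.5, a log2 change of -1.09 ± 0.13, adjusted p = 7.9e-09. Tgfb3, a ligand of later cushion stages, stood at 9.30, 7.47 and 8.13 CPM at E10.5 and 28.7, 32.8 and 30.9 CPM at E12.5, a log2 change of 1.89 ± 0.10, adjusted p = 7.6e-17. The ages did not overlap in either gene. Scx, a tendon and valve transcription factor, rose from 0.525 ± 0.05 to 2.56 ± 0.439 CPM (log2 change 2.29 ± 0.28), and the transition factor Snai1 from 2.007 ± 0.554 to 4.57 ± 0.414 CPM (log2 change 1.18 ± 0.27). Tgfbr3, a co-receptor, fell by 0.57 ± 0.11 and Msx2 by 0.59 ± 0.20 on the log2 scale, the latter without a call when E10.5 replicate 3 or E12.5 replicate 1 was left out. Sox9, a factor of cushion mesenchyme, had a log2 change of -0.43 ± 0.13 with replicate 2 as its highest E10.5 library, and without it -0.24, adjusted p = 0.11, no longer a call. Over the list, 9 of 22 tested members rose and 7 fell, with a median log2 change of 0.15, against 31.0% and 24.4% over all genes. Of the endocardial and valve markers, 6 of 12 tested members rose and 4 fell, with a median log2 change of 0.24. Smoc1, a secreted calcium-binding protein, rose from 2.54 ± 0.556 to 16.6 ± 1.62 CPM (log2 change 2.71 ± 0.15), the adhesion molecule Cdh11 from 159.6 ± 5.14 to 271 ± 18.7 CPM and Klf4 from 2.87 ± 0.422 to 5.33 ± 0.59 CPM. Npr3, the natriuretic peptide clearance receptor of the endocardium, fell from 188 ± 33.1 to 125 ± 10.9 CPM, and Nfatc1, a transcription factor of the valve endocardium, from 55.2 ± 6.89 to 44.0 ± 1.41 CPM (log2 changes -0.59 ± 0.14 and -0.33 ± 0.08).

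**Figure D3:**
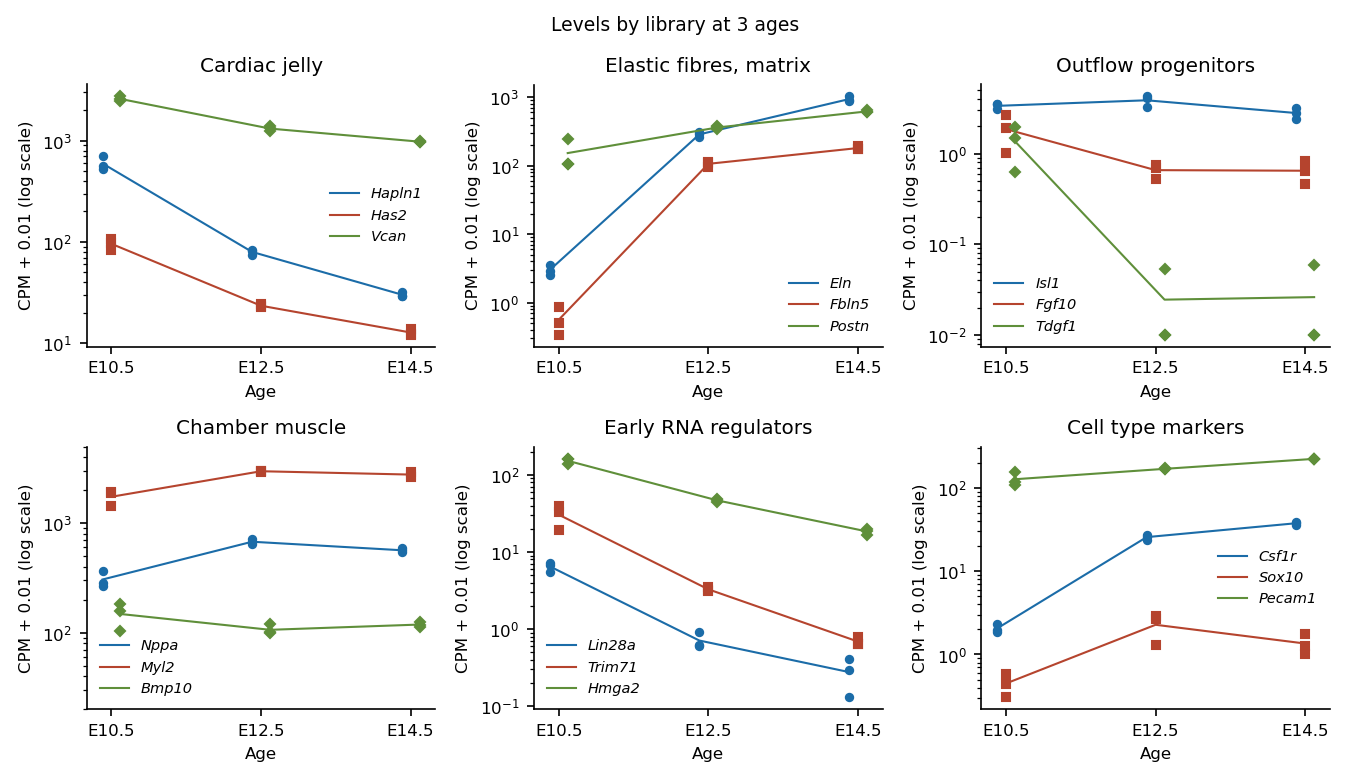
Level in each library at E10.5, E12.5 and E14.5 for 18 genes in 6 groups, as CPM plus 0.01 on a log axis, with lines through the means of the 3 libraries of an age. Hapln1, Has2, Vcan, Lin28a, Trim71 and Hmga2 were lower at E12.5 than at E10.5 and lower again at E14.5, while Eln, Fbln5, Postn and Csf1r were higher at each age; E14.5 is shown for its levels and its step shares the E12.5 libraries.

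Most sarcomere genes rose, while those of the scaffold proteins titin and nebulette fell. In the adult sarcomere list, 12 of 18 tested members rose and 2 fell, with a median log2 change of 0.47. Mybpc3, myosin-binding protein C, stood at 716, 556 and 732 CPM at E10.5 and 1306, 1498 and 1306 CPM at E12.5, a log2 change of 1.04 ± 0.11, adjusted p = 1.2e-09. Myoz2, a Z-disc protein that binds calcineurin, stood at 19.5, 24.6 and 21.1 CPM at E10.5 and 64.0, 58.5 and 55.0 CPM at E12.5, a log2 change of 1.44 ± 0.09, adjusted p = 6.3e-15. Myom2, an M-band protein of mature muscle, was still low at 4.07 ± 0.482 CPM but rose by 2.79 ± 0.26. Tnnt2, cardiac troponin T, went from 750.2 ± 81.1 to 1393 ± 60.1 CPM and Myl2, the ventricular regulatory light chain, from 1745 ± 264 to 2987 ± 38.2 CPM. Ttn, which encodes titin, the molecular spring from Z-disc to M-band, stood at 31060, 12650 and 21930 CPM at E10.5 and 10750, 9238 and 10460 CPM at E12.5, a log2 change of -1.11 ± 0.17, adjusted p = 1.7e-06. Its E10.5 libraries spread from 12650 to 31060 CPM and all lay above the E12.5 libraries, and the E14.5 mean was 25040 CPM. Nebl, the gene of the Z-disc protein nebulette, stood at 898, 616 and 803 CPM at E10.5 and 233, 197 and 231 CPM at E12.5, a log2 change of -1.81 ± 0.11, adjusted p = 7.4e-15. The summed level of the list, Ttn included, was 44940, 26880 and 37370 CPM at E10.5 and 30160 to 30800 CPM at E12.5.

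Both cardiac myosin heavy chains rose. Myh7 went from 4226 ± 564 to 8806 ± 209 CPM (log2 change 1.06 ± 0.22) and Myh6 from 2258 ± 492 to 3852 ± 271 CPM (log2 change 0.77 ± 0.11). The Myh6 share of their summed counts was 38.2%, 31.6% and 34.0% at E10.5 and 29.9%, 31.5% and 29.8% at E12.5, and an exact permutation test, 2-sided, gave p = 0.1, the smallest that 3 against 3 libraries allow. Corrected for gene length, the mean share was 40.4% and 35.9%. Tnni3, the cardiac form of troponin I, made up 25.0%, 21.6% and 24.8% at E10.5 and 29.99%, 26.2% and 27.5% at E12.5 of its counts summed with those of Tnni1, the slow skeletal form, also with an exact p = 0.1, and 35.2% and 40.3% on average when corrected for length. Tnni3 itself rose from 256 ± 26.4 to 375 ± 11.9 CPM. In the fetal and atrial list, 4 of 13 tested members rose and 3 fell, with a median log2 change of -0.24. Nppa, the atrial natriuretic peptide made at this stage by trabecular and atrial muscle, stood at 284, 269 and 364 CPM at E10.5 and 644, 714 and 673 CPM at E12.5, a log2 change of 1.15 ± 0.12, adjusted p = 2.2e-09. Nppb, its ventricular relative, stood at 74.2, 178 and 74.8 CPM at E10.5 and 63.7, 69.1 and 58.7 CPM at E12.5 and did not pass the test (adjusted p = 0.096), with replicate 2 high at E10.5. Myl1, a myosin light chain gene of this list, fell from 228 ± 90.3 to 96.8 ± 6.04 CPM, and Myl7, the atrial light chain, had a log2 change of -0.26 ± 0.13 without a call. Tpm2, a tropomyosin of slow muscle and smooth muscle, rose from 30.9 ± 4.10 to 62.6 ± 3.04 CPM.

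Calcium handling genes moved both ways. Casq2, the calcium buffer of the sarcoplasmic reticulum, stood at 15.6, 17.9 and 12.3 CPM at E10.5 and 101, 89.5 and 81.2 CPM at E12.5, a log2 change of 2.57 ± 0.11, adjusted p = 3.2e-19. Sln, the atrial inhibitor of the calcium pump, stood at 0.936, 1.84 and 0.706 CPM at E10.5 and 8.35, 9.83 and 8.24 CPM at E12.5, a log2 change of 2.94 ± 0.22, adjusted p = 2.4e-11. Jph2, which ties the reticulum to the cell membrane, went from 83.8 ± 5.77 to 148 ± 7.16 CPM (log2 change 0.82 ± 0.08). Slc8a1, the exchanger that carries much of the calcium out of the early embryonic cardiomyocyte, stood at 1381, 1020 and 1642 CPM at E10.5 and 975, 869.7 and 902 CPM at E12.5, a log2 change of -0.56 ± 0.10, adjusted p = 2.6e-05. Trdn, the triadin that anchors calsequestrin, fell by 0.90 on the log2 scale, or 0.59 without E10.5 replicate 2, and the channel subunit Cacnb2 fell by 0.54 ± 0.12. Over the list, 7 of 18 tested members rose and 6 fell, with a median log2 change of -0.08, against 31.0% and 24.4% over all genes. Without E10.5 replicate 2 the counts were 6 and 8. Among channels and connexins, 9 of 20 tested members rose and 5 fell, with a median log2 change of 0.42. Cacna1g, the T-type calcium channel of pacemaker and conduction cells, stood at 2.10, 1.93 and 1.41 CPM at E10.5 and 20.4, 25.4 and 25.9 CPM at E12.5, a log2 change of 3.74 ± 0.17, adjusted p = 5.4e-17. Scn4b, a sodium channel beta subunit, stood at 4.68, 3.09 and 6.94 CPM at E10.5 and 0.661, 0.825 and 0.783 CPM at E12.5, a log2 change of -2.70 ± 0.47, adjusted p = 5.0e-05. Kcnq1, a repolarising potassium channel, rose from 4.68 ± 0.648 to 10.9 ± 0.976 CPM and its subunit Kcne1 from 8.64 ± 0.769 to 16.0 ± 1.05 CPM. Kcnj5, a subunit of the acetylcholine-gated potassium channel, fell from 92.3 ± 14.5 to 62.9 ± 0.602 CPM.

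Core cardiac transcription factors changed little in size. In that list, 14 of 28 tested members rose and 5 fell, with a median log2 change of 0.21, and 1 changed at least 2-fold. That gene was Irx3, a factor of trabecular and conduction muscle, which went from 5.42 ± 1.38 to 11.9 ± 1.68 CPM (log2 change 1.14 ± 0.18). Hand2 rose by 0.94 ± 0.10, Srf, the serum response factor, by 0.68 ± 0.10 and Tbx5 by 0.48 ± 0.10. Mef2c fell by 0.95 ± 0.07, Gata5, an endocardial factor, by 0.68 ± 0.12, Myocd, the coactivator of Srf, by 0.61 ± 0.09 and Tbx20 by 0.38 ± 0.09. Gata4 rose by 0.21 ± 0.07, without a call when only the 6 samples or only protein-coding genes were fitted. Nkx2-5 (log2 change 0.21 ± 0.10) and Hand1 (-0.38 ± 0.18) did not pass the test, but did so without E10.5 replicate 2, with 0.36, adjusted p = 0.0029, and -0.49, adjusted p = 0.032.

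Genes of the second heart field, the progenitors that add muscle to the outflow tract and right ventricle, moved both ways. In that list, 7 of 18 tested members rose and 5 fell, with a median log2 change of 0.18, against 31.0% and 24.4% over all genes. Fgf8, the growth factor of these progenitors, had 50 counts over the 3 E10.5 libraries and 0 at E12.5, which makes it at least 20.97-fold lower (floor of 3 counts over the group, covering counting error only). Tdgf1, a co-receptor for Nodal found in the outflow tract, had 148 counts at E10.5 and 2 at E12.5, a ratio of 93.1 (95% interval 25.3 to 776). Fgf10 stood at 1.91, 1.01 and 2.65 CPM at E10.5 and 0.685, 0.738 and 0.522 CPM at E12.5, a log2 change of -1.52 ± 0.44, adjusted p = 0.0039. All E10.5 libraries exceeded all E12.5 libraries for these 3 ligands and co-receptors. In 3 of the 18 tested members of the list, an age had 3 or fewer counts. A member that passed the filter through E10.5 or E12.5 alone had to differ, so the counts and the lack of overlap are a description. Isl1, the transcription factor that marks these progenitors, stood at 3.07, 3.51 and 3.505 CPM at E10.5 and 4.11, 4.28 and 3.24 CPM at E12.5 and did not pass the test. Tbx1, expressed in pharyngeal mesoderm and endoderm, had 1 count at E10.5 and 107 at E12.5, a ratio of 85.1 (95% interval 14.9 to 3391). Foxf1 went from 0.372 ± 0.137 to 3.14 ± 1.37 CPM and Osr1 from 1.62 ± 0.215 to 12.98 ± 2.20 CPM, both factors of lung and foregut mesenchyme as well as of the posterior second heart field. Markers of pharyngeal and foregut endoderm were also higher at E12.5. Of 14 listed, 10 passed the filter on low counts, of which 9 rose and 0 fell, and with a stricter filter 5 rose; a marker that passed through E12.5 alone had to differ, so the counts are a description. The summed level of all 14 was 6.01 to 10.9 CPM at E10.5 and 18.8 to 24.4 CPM at E12.5. Foxa2, which marks endoderm, had 3 counts at E10.5 and 161 at E12.5. Nkx2-1, which marks lung and thyroid, had 0 and 59, at least 15.6-fold higher, though DESeq2 did not call it. The part of such tissue in these results was not tested.

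In the trabeculation list, 14 of 23 tested members rose and 6 fell, with a median log2 change of 0.25, and without E10.5 replicate 2, 8 rose and 6 fell. Nrg1, the neuregulin that the endocardium sends to the muscle, stood at 35.8, 37.1 and 38.7 CPM at E10.5 and 18.6, 16.2 and 16.2 CPM at E12.5, a log2 change of -1.13 ± 0.13, adjusted p = 1.3e-08. Its muscle receptor Erbb4 stood at 175, 121 and 176 CPM at E10.5 and 79.3, 69.8 and 76.4 CPM at E12.5, a log2 change of -1.07 ± 0.11, adjusted p = 1.1e-09. Angpt1, the muscle-derived ligand of the endothelial receptor Tek, stood at 111, 97.7 and 94.9 CPM at E10.5 and 39.5, 33.9 and 38.7 CPM at E12.5, a log2 change of -1.44 ± 0.13, adjusted p = 4.7e-10. All 3 genes were lower in every E12.5 library than in any E10.5 library. Bmp10, which sustains growth of trabecular muscle, stood at 159, 104 and 181 CPM at E10.5 and 119, 98.2 and 101 CPM at E12.5; the ages overlapped through replicate 2, and the call (log2 change -0.48 ± 0.17) was lost in 5 of the alternatives, among them without E10.5 replicate 1 or 3. Rising members were the protease Adamts1, given above, Slit3, a guidance ligand, from 21.6 ± 6.88 to 53.2 ± 11.0 CPM, and Sema3e, a semaphorin, from 0.887 ± 0.328 to 2.24 ± 0.0535 CPM. Of the ventricular and compact wall markers, 8 of 12 tested members rose and 2 fell, with a median log2 change of 0.35, and of the atrial and sinus node markers, 7 of 14 tested members rose and 2 fell, with a median log2 change of 0.42. Cited1, a transcriptional coregulator of the compact wall list, rose from 72.5 ± 9.87 to 131 ± 7.80 CPM, and Mpped2 of the same list fell from 74.4 ± 7.65 to 41.7 ± 2.17 CPM. Of the general cardiomyocyte markers, 5 of 13 rose and 1 fell, and 9 and 2 without E10.5 replicate 2.

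Most retinoic acid genes rose. Retinoic acid, which the enzyme Aldh1a2 makes in the epicardium, patterns the inflow and the compact wall. Aldh1a2 stood at 9.91, 7.91 and 5.09 CPM at E10.5 and 26.1, 29.8 and 30.2 CPM at E12.5, a log2 change of 1.92 ± 0.22, adjusted p = 8.0e-08. Dhrs3, which turns retinal back to retinol, stood at 1.65, 1.58 and 2.29 CPM at E10.5 and 12.3, 16.9 and 14.4 CPM at E12.5, a log2 change of 2.96 ± 0.20, adjusted p = 5.5e-12. Stra6, the receptor for retinol uptake, rose from 0.432 ± 0.179 to 1.90 ± 0.633 CPM. Over the list, 10 of 15 tested members rose and 1 fell, with a median log2 change of 1.15, against the background of 31.0% and 24.4%. The gene that fell was Aldh1a1, one of the 12 largest falls. Of the Wnt genes, 14 of 26 tested members rose and 5 fell, with a median log2 change of 0.57. Besides Sfrp2, the ligand Wnt9b of the endocardium rose from 1.40 ± 0.389 to 7.17 ± 0.286 CPM and the Wnt-inactivating enzyme Notum from 0.356 ± 0.108 to 2.85 ± 0.0316 CPM. Wnt2, a ligand of the inflow region, fell from 14.6 ± 1.65 to 6.76 ± 0.414 CPM, and the agonist Rspo3 from 17.4 ± 1.77 to 9.17 ± 0.945 CPM. The antagonist Dkk1 fell from 2.04 ± 0.365 to 0.694 ± 0.155 CPM, a call that was lost without E10.5 replicate 3 or E12.5 replicate 1.

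Hox genes were higher at E12.5, from very low levels. Hox genes give cells positional identity along the body axis and, in the heart, mark the posterior second heart field and neural crest. Of 23 listed, 14 passed the filter on low counts and 14 rose; a gene that passed through E12.5 alone had to differ, so the count is a description. The summed level of all 23 was 4.43 to 4.94 CPM at E10.5 and 22.4 to 29.1 CPM at E12.5, and 4 were at 0 in all 6 libraries. Hoxa5 stood at 0.0969, 0.178 and 0.219 CPM at E10.5 and 3.06, 4.17 and 3.65 CPM at E12.5, a log2 change of 4.40 ± 0.48, adjusted p = 3.1e-09. Hoxd3 and Hoxa4 rose by 4.06 ± 0.67 and 4.64 ± 0.61, from 15 and 9 counts over the E10.5 libraries, and by 4.83 without E10.5 replicate 2 and 5.69 without E10.5 replicate 1. At E14.5 the means of the 3 genes were 1.31, 0.549 and 0.83 CPM, and each fell in that step. Markers of foregut endoderm, listed above, were higher at E12.5 over a like range of levels, and their part in the Hox values was not tested.

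Epicardial markers rose in part. Of them, 9 of 16 tested members rose and 3 fell, with a median log2 change of 0.53. Msln, which encodes mesothelin, a surface protein of the mature mesothelium, stood at 0.226, 0.0595 and 0.365 CPM at E10.5 and 5.78, 6.21 and 4.44 CPM at E12.5, a log2 change of 4.57 ± 0.29, adjusted p = 1.3e-13, or 5.26 without E10.5 replicate 3. Bnc2, a zinc finger protein of mesothelium and mesenchyme, rose from 1.29 ± 0.369 to 4.89 ± 0.975 CPM, and Tbx18 from 40.2 ± 11.4 to 56.9 ± 0.169 CPM, the latter without a call when only the 6 samples were fitted. Wt1, the classical epicardial factor, stood at 20.7, 11.9 and 17.5 CPM at E10.5 and 16.6, 18.4 and 16.9 CPM at E12.5 and did not pass the test; its E10.5 libraries spread around those of E12.5. Aldh1a1, Krt8, a keratin, and Upk1b, a uroplakin, fell, the last 2 by 0.93 ± 0.17 and 0.82 ± 0.15 on the log2 scale.

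Most coronary vessel markers rose, while the count of endothelial markers that rose depended on the fit. Of the endothelial markers, 10 of 16 tested members rose and 0 fell, with a median log2 change of 0.30. In 7 of them each E12.5 library was above each E10.5 library. Other scalings gave 8 or 10 that rose, DESeq2 8, and the 6 samples fitted alone 7. Leaving out single libraries gave 7 to 11, and 1 member fell once E10.5 replicate 2 was dropped. Cldn5, a tight junction protein of vascular endothelium, stood at 1.16, 0.714 and 0.292 CPM at E10.5 and 4.601, 4.34 and 5.55 CPM at E12.5, a log2 change of 2.80 ± 0.22, adjusted p = 3.8e-12. The receptors Robo4 and Tie1 rose by 1.87 ± 0.13 and 0.88 ± 0.08, and Pecam1 went from 127 ± 25.2 to 169 ± 3.53 CPM. Of the coronary vessel markers, 9 of 13 tested members rose and 1 fell, with a median log2 change of 0.60. Fabp4, a fatty acid binding protein of coronary endothelium, stood at 0.226, 0.446 and 0.195 CPM at E10.5 and 3.30, 3.21 and 4.15 CPM at E12.5, a log2 change of 3.63 ± 0.27, adjusted p = 6.7e-12, and its E14.5 mean was 43.7 CPM. Apln, the ligand of sprouting endothelium, stood at 0.258, 0.357 and 0.365 CPM at E10.5 and 4.04, 4.49 and 4.37 CPM at E12.5, a log2 change of 3.69 ± 0.30, adjusted p = 7.3e-11. Aqp1, a water channel of endothelium and red cells, rose from 9.18 ± 1.08 to 45.9 ± 1.13 CPM. Car4 was the member that fell. Of the lymphatic markers, 5 of 7 tested members rose and 0 fell, with a median log2 change of 0.50. Without E10.5 replicate 2, 4 rose and 1 fell, and with only the 6 samples fitted 4 rose and 0 fell. Flt4, the Vegfc receptor, rose from 19.4 ± 4.47 to 34.8 ± 0.74 CPM and Reln from 18.1 ± 3.26 to 34.9 ± 2.76 CPM. Ccl21a, a chemokine of lymphatic endothelium, had 0 counts at E10.5 and 412 at E12.5, at least 109-fold higher, but near-identical copies of this gene make its count uncertain.

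Nearly all macrophage genes rose. Of 16 tested, 15 rose and 0 fell, with a median log2 change of 2.61, or 2.14 with the 1 gene that had no E10.5 count set at its lower bound. The summed level was 15.4 to 17.5 CPM at E10.5 and 101 to 111 CPM at E12.5. Csf1r, the receptor on which macrophages depend, stood at 1.97, 1.84 and 2.31 CPM at E10.5 and 23.6, 27.5 and 25.8 CPM at E12.5, a log2 change of 3.64 ± 0.12, adjusted p = 1.0e-21. Mrc1, the mannose receptor of resident macrophages, stood at 2.75, 2.38 and 3.04 CPM at E10.5 and 19.4, 18.1 and 22.2 CPM at E12.5, a log2 change of 2.86 ± 0.12, adjusted p = 9.1e-19. The complement genes C1qa and C1qc and the surface receptor Adgre1 rose by 4.92 ± 0.25, 4.597 ± 0.22 and 4.21 ± 0.20. No E10.5 library reached an E12.5 library in any of these 5 genes. Genes of neural crest and its nerve derivatives rose in part, and their count depended on the filter and the fit. Of the 20 tested, 13 rose and 1 fell, and with a stricter filter 9 rose. In 6 of the 20, an age had 3 or fewer counts. A member that passed the filter through E12.5 alone had to differ, so the counts are a description. The summed level was 91.8 to 99.5 CPM at E10.5 and 120.1 to 130.3 CPM at E12.5. Sox10, a factor of crest and Schwann precursors, stood at 0.581, 0.297 and 0.438 CPM at E10.5 and 1.27, 2.89 and 2.63 CPM at E12.5, a log2 change of 2.37 ± 0.37, adjusted p = 1.7e-06. Erbb3, the member that fell, lost its call without E10.5 replicate 2. In the fit of the 6 samples alone, 5 of the members rose and 2 fell.

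Red cell genes moved both ways. Hemoglobin transcripts took 0.869%, 1.69% and 0.992% of the counts at E10.5 and 2.60%, 2.86% and 3.02% at E12.5. The embryonic beta-like globin Hbb-bh1, the one expressed earliest in primitive red cells, stood at 1757, 5273 and 2048 CPM at E10.5 and 615, 662 and 642 CPM at E12.5, a log2 change of -2.24 ± 0.36, adjusted p = 9.0e-05. Replicate 2 was the highest E10.5 library, and without it the log2 change was -1.57, adjusted p = 3.0e-05. The other embryonic chains, Hbb-y and Hba-x, rose, from 3937 ± 2010 to 9113 ± 463 CPM (log2 change 1.21 ± 0.29) and from 1096 ± 119 to 1884 ± 81.7 CPM (log2 change 0.78 ± 0.19). The adult beta globin Hbb-bt stood at 59.3, 173 and 63.3 CPM at E10.5 and 919, 1094 and 1130 CPM at E12.5, a log2 change of 3.41 ± 0.46, adjusted p = 2.4e-06, or 4.10 without replicate 2, and the adult alpha globins Hba-a1 and Hba-a2 rose by 2.37 ± 0.39 and 2.67 ± 0.41; the adult copies are near-identical, so the split between them is uncertain. The 3 embryonic genes made up 80.8%, 86.6% and 82.5% at E10.5 and 57.0%, 52.1% and 53.4% at E12.5 of all globin counts (exact permutation test, 2-sided, p = 0.1, the smallest possible). By E14.5 the means of Hbb-bh1, Hbb-y and Hba-x were 8.60, 759.9 and 88.8 CPM. Tfrc, the transferrin receptor that brings iron to red cell precursors and dividing cells, stood at 386, 382 and 386 CPM at E10.5 and 113, 87.8 and 99.4 CPM at E12.5, a log2 change of -1.94 ± 0.28, adjusted p = 5.1e-06. Klf1, the erythroid transcription factor, went from 7.23 ± 0.864 to 3.46 ± 0.0835 CPM. The heme synthesis enzymes Alas2 and Fech rose, from 50.6 ± 10.3 to 124 ± 4.82 CPM and from 48.9 ± 1.12 to 84.0 ± 1.61 CPM, while Cpox fell from 40.3 ± 9.16 to 23.4 ± 2.95 CPM. Over the red cell list, 9 of 15 tested members rose and 4 fell, with a median log2 change of 0.78, and over heme and iron genes, 5 of 15 tested members rose and 3 fell, with a median log2 change of -0.003. Of 8 platelet markers, 2 rose and 0 fell. They were Itga2b, whose call was lost without E10.5 replicate 1 or E12.5 replicate 2, and Ppbp, while Pf4 stood at 8.40, 17.2 and 9.44 CPM at E10.5 and 10.4, 13.3 and 9.09 CPM at E12.5 without a call.

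Markers of other tissues near the heart were mostly low. Of 10 tested liver markers, 2 rose, with a summed level of 12.9 to 15.3 CPM at E10.5 and 31.0 to 35.2 CPM at E12.5. These were Trf, the transferrin gene, from 10.3 ± 0.773 to 27.3 ± 1.77 CPM, and Ahsg, from 0.126 ± 0.111 to 1.03 ± 0.291 CPM; Alb, the albumin gene, had 3 and 53 counts and no call. Of 4 tested skeletal muscle progenitor markers, 2 rose, at summed levels of 0.657 to 0.744 CPM and 1.56 to 3.96 CPM, and of 4 tested neural tube markers, 2 rose. The neural tube list summed to 92.4 to 122 CPM and 133 to 139 CPM, nearly all of it Nes, an intermediate filament gene that embryonic vessels and muscle also express, and 3 of its 10 members were at 0 in all 6 libraries. The part of neighbouring tissue in the changes of low genes was not tested.

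The early RNA-binding proteins and other genes of the let-7 axis fell together. Lin28a and Lin28b block the maturation of let-7 microRNAs in early embryonic cells, and let-7 in turn represses Lin28, Trim71, Hmga2 and the Igf2bp genes, a switch that runs with differentiation. Over the list, 0 of 14 tested members rose and 12 fell, with a median log2 change of -0.998, and 7 fell at least 2-fold. The genes were listed partly as known let-7 targets. Lin28a stood at 6.85, 5.44 and 7.21 CPM at E10.5 and 0.906, 0.586 and 0.609 CPM at E12.5, a log2 change of -3.21 ± 0.41, adjusted p = 1.7e-07. Lin28b stood at 28.7, 19.99 and 25.5 CPM at E10.5 and 5.19, 4.601 and 5.37 CPM at E12.5, a log2 change of -2.29 ± 0.23, adjusted p = 8.4e-10. Each E12.5 library was below each E10.5 library in both, as in Trim71 above. Hmga2, a chromatin protein of growing embryonic tissue, went from 152 ± 14 to 46.7 ± 2.14 CPM (log2 change -1.71 ± 0.12), Sall4, a zinc finger factor of pluripotent cells, from 11.4 ± 3.11 to 2.59 ± 0.617 CPM (log2 change -2.14 ± 0.23), and Nr6a1, an orphan nuclear receptor, from 15.7 ± 0.627 to 4.87 ± 0.202 CPM (log2 change -1.68 ± 0.14). Igf2bp1, Igf2bp2 and Igf2bp3, which bind messenger RNAs, fell by 0.59 ± 0.10, 0.38 ± 0.09 and 0.43 ± 0.12 on the log2 scale. Dnd1 and Mycn had log2 changes of -0.15 ± 0.29 and -0.05 ± 0.13 and no call. Lin28a, Lin28b and Trim71 had means of 0.267, 3.04 and 0.679 CPM at E14.5.

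The let-7 seed and its match were looked up in these genes, and not all of them hold the match. All 9 mature let-7 and miR-98 sequences in RefSeq (GRCm38.p6) share bases 2 to 8, shown in capitals for a pair of them that differ elsewhere.
mmu-let-7a-5p: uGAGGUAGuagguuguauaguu
mmu-miR-98-5p: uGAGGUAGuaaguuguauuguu
The match to the seed followed by an A, CTACCTCA, stood in the annotated 3′ untranslated region (GENCODE M21, the transcript with the longest coding sequence of each gene) of 9 of the 14 listed genes. The earliest match in the region is shown for 5 of them in capitals, 5′ to 3′ on the gene's strand with 12 bases before and 4 after, from GRCm38.
Trim71: attgcctaagtcCTACCTCAgctt
Lin28a: cagcctgttgaaCTACCTCAtttt
Lin28b: cgggcgggaagtCTACCTCAtgca
Hmga2: gacattcaatttCTACCTCAgcat
Igf2bp1: gtgcgaagtaaaCTACCTCAaggt
These sites were at Trim71 (chr9:114512468-114512491, minus strand), Lin28a (chr4:134005185-134005208, minus strand), Lin28b (chr10:45381018-45381041, minus strand), Hmga2 (chr10:120364220-120364243, minus strand) and Igf2bp1 (chr11:95961774-95961797, minus strand). Trim71 held 4 such matches, Igf2bp1 3, Lin28a 2 and the other 2 genes 1 each. A match is a description of the sequence, not evidence of binding.

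Across the genome the same letters were uncommon. Of 15120 tested genes with an annotated 3′ untranslated region, 3.19% held the match. Genes with 0 matches (14637) had a median log2 change of 0.149, those with 1 (459) of -0.005 and those with 2 or more (24) of -0.354. Of the 24, 3 rose and 13 fell, against 37.9% and 24.2% of genes with 0. Of the 24, 4 are members of the list above, and without list members the medians were 0.149, 0.005 and -0.02, with 3 of the remaining 20 rising and 9 falling. The shorter match CTACCTC, without the A, gave medians of 0.148, 0.12 and -0.014 for 0, 1 and 2 or more matches, list members included. In regions of at least 1000 but under 3000 bases it gave 0.111, 0.167 and 0.186, and in longer regions -0.117, -0.107 and -0.227. CTACCTCA gave 0.121, 0.076 and -0.186 in regions of at least 1000 but under 3000 bases. The last is the median of 10 genes, among them the list member Lin28a. The 6 genes with 3 or more matches were Trim71, Nr6a1, Fign, Fignl2, Trim6 and Igf2bp1, and all 6 fell, with log2 changes from -3.22 to -0.59; they were named after their values were seen, and 3 are members of the list above. Length of the region moved with the change as well: genes with 3000 bases or more and 0 matches had a median of -0.114, and the 13 of that length with 2 or more matches had -0.299. The list members Trim71, Nr6a1 and Igf2bp1 are among these 13, and a median without them was not taken. Without E10.5 replicate 2 the medians for 0, 1 and 2 or more matches, list members included, were 0.177, -0.012 and -0.375. Mature let-7 is too short for these libraries, and the 12 let-7 and miR-98 hairpin genes in the table had 0 counts, so levels of the microRNAs were not measured.

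**Figure D4:**
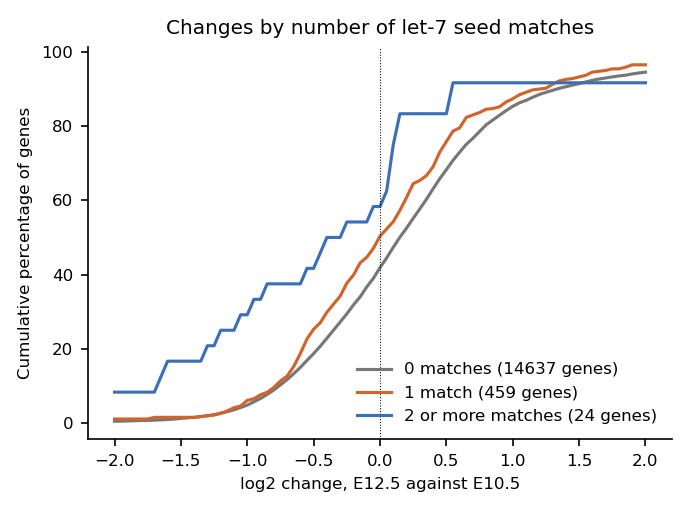
Cumulative percentage of genes by log2 change of E12.5 over E10.5, for genes with 0 (grey), 1 (orange) and 2 or more (blue) 8-base matches to the let-7 seed in the annotated 3′ untranslated region. The curve of the 24 genes with 2 or more matches lies left of that of the 14637 genes without one over most of its range, with medians of -0.354 and 0.149; 4 of the 24 are members of the let-7 list, and without them the median of the other 20 was -0.02.

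Imprinted genes, which are expressed from a single parental allele and regulate fetal growth, moved both ways. Of 21 tested members, 4 rose and 8 fell, with a median log2 change of -0.14, against 31.0% and 24.4% over all genes. H19, a noncoding RNA, stood at 5731, 5362 and 5911 CPM at E10.5 and 8578, 8790 and 8481 CPM at E12.5, a log2 change of 0.60 ± 0.10, adjusted p = 4.5e-06, and Dlk1, a Notch-like membrane protein of fetal tissue, rose from 5.19 ± 1.07 to 20.6 ± 1.48 CPM (log2 change 1.99 ± 0.16). Igf2, the fetal growth factor next to H19, had a log2 change of 0.33 ± 0.10, with replicate 2 as the lowest E10.5 library, and no call without it (log2 change 0.16, adjusted p = 0.067). Peg10, a retrotransposon-derived gene, fell from 202 ± 11.5 to 121 ± 11.4 CPM, Zim1 from 104 ± 27.7 to 65.0 ± 4.44 CPM and Impact from 48.6 ± 4.76 to 26.1 ± 0.655 CPM.

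Counts of cell cycle genes depended on the fit, and the background was 31.0% that rose and 24.4% that fell. Of the S phase genes, 1 of 24 tested members rose and 8 fell, with a median log2 change of -0.13. Ccne2, a cyclin that starts DNA replication, stood at 84.3, 101 and 79.0 CPM at E10.5 and 29.5, 25.8 and 29.97 CPM at E12.5, a log2 change of -1.63 ± 0.24, adjusted p = 6.0e-06. Pola1, the catalytic subunit of DNA polymerase alpha, stood at 66.3, 65.2 and 65.7 CPM at E10.5 and 34.6, 30.6 and 33.8 CPM at E12.5, a log2 change of -0.99 ± 0.13, adjusted p = 2.0e-07. Lig1, DNA ligase 1, was the member that rose, from 47.3 ± 4.76 to 72.5 ± 2.43 CPM. Of the G2/M genes, 0 of 25 tested members rose and 7 fell, with a median log2 change of -0.38. Bub1, a kinase of the spindle checkpoint, stood at 73.9, 72.2 and 69.7 CPM at E10.5 and 30.9, 28.4 and 31.5 CPM at E12.5, a log2 change of -1.25 ± 0.29, adjusted p = 0.0011. The centromere proteins Cenpe and Cenpf fell by 0.95 ± 0.26 and 0.82 ± 0.13 on the log2 scale. Mki67, the common proliferation marker, stood at 253, 244 and 248 CPM at E10.5 and 162, 158 and 176 CPM at E12.5, without overlap, but did not pass the test (log2 change -0.59 ± 0.30, adjusted p = 0.1). When the 6 samples alone were filtered, scaled and fitted, 15 of the 25 G2/M genes fell and 2 rose. Of the S phase genes 11 fell and 3 rose in that fit, where 26.6% of all genes fell and 25.2% rose. Of the cyclin-dependent kinase inhibitors and p53 targets, 8 of 15 tested members rose and 5 fell, with a median log2 change of 0.36. Cdkn2c, an inhibitor of the G1 kinases, rose from 3.75 ± 0.533 to 10.6 ± 0.509 CPM (log2 change 1.49 ± 0.18), and Bbc3, a p53 target that promotes cell death, from 0.788 ± 0.137 to 2.56 ± 0.432 CPM. Ccng1 and Eda2r, other p53 targets, fell from 178 ± 20.3 to 101 ± 10.2 CPM and from 12.3 ± 0.927 to 4.62 ± 0.793 CPM.

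In the glycolysis list, 14 of 23 tested members rose and 5 fell, with a median log2 change of 0.43. Slc2a1, the embryonic glucose transporter, stood at 302, 242 and 341 CPM at E10.5 and 195, 194 and 188 CPM at E12.5, a log2 change of -0.61 ± 0.15, adjusted p = 0.0011, and Slc2a3 fell by 0.97 ± 0.14. Slc2a4, the insulin-responsive transporter of adult muscle, rose from 6.89 ± 0.572 to 14.5 ± 1.47 CPM (log2 change 1.08 ± 0.11). Pfkm, the muscle phosphofructokinase, stood at 44.9, 44.9 and 46.3 CPM at E10.5 and 108, 117 and 111 CPM at E12.5, a log2 change of 1.31 ± 0.08, adjusted p = 1.8e-15. Ldhb, the heart form of lactate dehydrogenase, stood at 97.2, 124 and 102 CPM at E10.5 and 229, 241 and 231 CPM at E12.5, a log2 change of 1.12 ± 0.09, adjusted p = 1.2e-12, while Ldha, the anaerobic form, stood at 878, 1370 and 943 CPM at E10.5 and 857, 919 and 856 CPM at E12.5, with a small fall that was lost without replicate 2 (log2 change -0.05, adjusted p = 0.66). Slc16a1, a lactate transporter, fell from 204 ± 24.0 to 126 ± 8.38 CPM. Of the genes of fatty acid oxidation, 18 of 28 tested members rose and 2 fell, with a median log2 change of 0.47. Cpt1a, the fetal form of the enzyme that admits fatty acids to mitochondria, stood at 17.0, 18.2 and 23.8 CPM at E10.5 and 55.7, 65.2 and 60.7 CPM at E12.5, a log2 change of 1.62 ± 0.09, adjusted p = 1.0e-15. Its muscle form Cpt1b rose from 111 ± 11.8 to 159.6 ± 12.8 CPM. Slc27a1, a fatty acid transporter, and the thioesterase Acot2 rose by 1.73 ± 0.18 and 1.27 ± 0.10. The 2 members that fell were Decr1, whose call was lost without replicate 2, and Etfa, whose call was lost without E12.5 replicate 2. Of the hypoxia response genes, 8 of 19 tested members rose and 5 fell, with a median log2 change of 0.21. Hif1a, the transcription factor itself, fell from 376 ± 20.7 to 219 ± 15 CPM (log2 change -0.78 ± 0.08), and its target Bnip3, a mitophagy receptor, from 112 ± 13.6 to 76.5 ± 4.67 CPM. Ndrg1 and Ddit4, stress-induced targets, rose by 2.42 ± 0.13 and 1.40 ± 0.16.

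For respiratory, ribosomal and small noncoding RNA genes the result turned on E10.5 replicate 2. Of the nuclear genes of the respiratory complexes, 11 of 36 tested members rose and 11 fell, with a median log2 change of 0.13; without replicate 2, 23 rose and 6 fell, with a median of 0.37. Their summed level was 7571, 11090 and 8282 CPM at E10.5 and 9260 to 9960 CPM at E12.5. Some members held either way. Uqcrc1, a core subunit of complex III, stood at 86.5, 122 and 94.5 CPM at E10.5 and 163, 191 and 171 CPM at E12.5 (log2 change of 0.79 ± 0.11, adjusted p = 2.2e-07), Ndufv1, a catalytic subunit of complex I, rose by 0.81 ± 0.10, and Cycs, cytochrome c, fell from 529.9 ± 136 to 270.5 ± 30.6 CPM, in each case also without replicate 2. Of the 13 mitochondrially encoded transcripts, 10 fell and 0 rose, with a median of -0.91; without replicate 2, 6 fell, with a median of -0.60. Their share of all counts, with the mitochondrial ribosomal and transfer RNA genes, was 4.56%, 6.48% and 4.11% at E10.5 and 3.60%, 2.74% and 2.97% at E12.5, so each E12.5 library was below each E10.5 library. For mt-Nd3, a subunit of complex I, replicate 2 stood at 532 CPM against 76.6 and 59.6, and the log2 change of -1.53 ± 0.50 became 0.19, adjusted p = 0.5 without it. Of 39 cytosolic ribosomal protein genes, 22 fell and 1 rose, and without replicate 2, 6 fell and 8 rose. Rpl7 fell by 0.86 on the log2 scale, or by 0.41 without replicate 2, and the ribosomal proteins have processed pseudogenes that make single counts uncertain. Of 9 tested small noncoding RNA genes, 1 fell, Snhg1, the host gene of small nucleolar RNAs. Without replicate 2, 5 rose. Rn7sk stood at 4573, 27910 and 4314 CPM at E10.5 and 11640, 12420 and 12230 CPM at E12.5, with a log2 change of -0.02 ± 0.43 that became 1.45, adjusted p = 6.5e-08 without replicate 2, and Rpph1, the RNA of ribonuclease P, changed from -0.20 ± 0.44 to 1.10, adjusted p = 0.0022. What set this library apart was not tested.

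**Figure D5:**
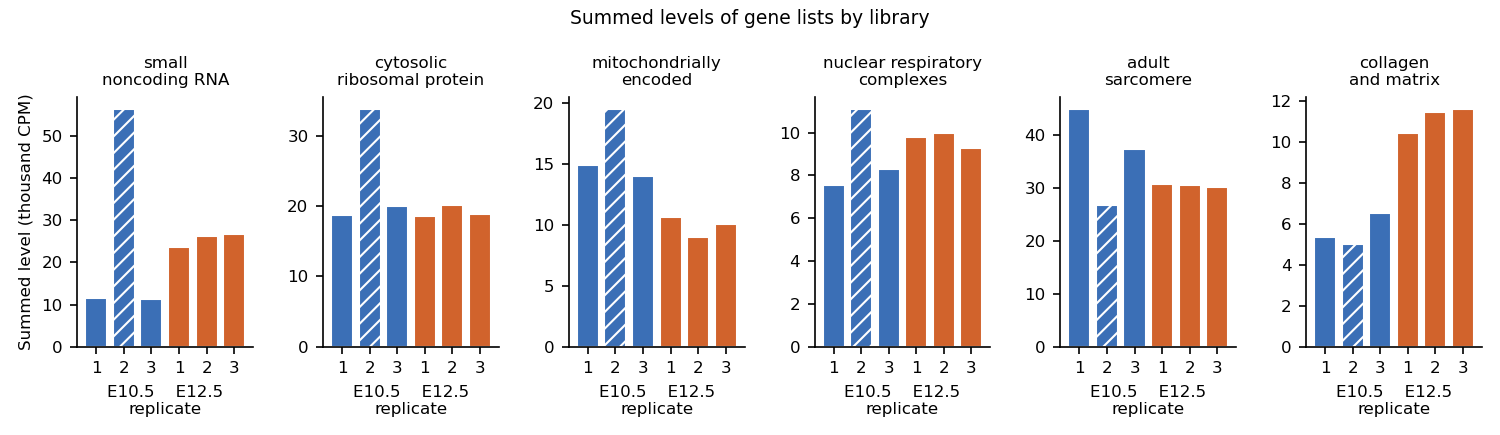
Summed level of 6 gene lists in each of the 6 libraries, in units of 1000 CPM, with E10.5 in blue (replicate 2 hatched) and E12.5 in orange. E10.5 replicate 2 is the highest library for the small noncoding, ribosomal protein, mitochondrially encoded and nuclear respiratory lists and the lowest for the sarcomere list, while for the collagen and matrix list all E12.5 libraries lie above all E10.5 libraries. The sarcomere sum includes Ttn, a large part of it, whose lowest E10.5 library was also replicate 2. Of the 18 members of that list, 12 rose and 2 fell, so its sum does not show the direction of most members.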

How the data were processed

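Poly(A)-selected RNA from wild-type, untreated mouse hearts was sequenced at 10 ages with 3 libraries each. The deposited table holds estimated counts per gene that the authors made from the reads; 6.94% of its values were not whole (tolerance 1e-06), and all were rounded before testing. Reads were trimmed with fastp 0.18.0 and aligned with STAR 2.5.3a to GRCm38 (mm10), per the submitters' processing notes as far as they name tools and builds; the order of steps, the counting tool, its annotation and its use of strand were not given in the sources used here. Without a known strand setting, reads of overlapping and antisense genes cannot be told apart. Gene symbols came from GENCODE M21, which named 48058 of the 48820 gene IDs.

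Genes with enough counts (edgeR's filterByExpr, minimum count 10, minimum total 15) were scaled by TMM and tested in 1 robust quasi-likelihood fit of all 30 libraries and 10 ages (edgeR 4.0.16, R 4.3.3, 20 residual degrees of freedom), with Benjamini-Hochberg adjustment over all tested genes at 0.05. The script was tested on simulated data. The 6 libraries held 23164934 to 35333714 counts each; intervals of ratios and floors of 3 counts cover counting error only. Shares of counts were compared by exact permutation tests over libraries.

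The genes named were, by a written rule, the 12 largest rises and 12 largest falls with at least 10 CPM in the higher group, no overlap between the ages, and a call also without E10.5 replicate 2; up to 3 rises and 3 falls of each list; and a set panel. Fn1, Tnc, Fign, Fignl2, Trim6, Nes and, of the let-7 list, Sall4, Hmga2, Nr6a1, Igf2bp1, Igf2bp2, Igf2bp3, Dnd1 and Mycn were named outside it, after their values were seen. The members and lists were chosen with earlier results of these data known. Alternatives, of which leaving out let-7 list members, counting protein-coding genes only and fitting the 2 ages without E10.5 replicate 2 were chosen after seeing the data, were other scalings (RLE, upper quartile, library size alone), no filter or a stricter one, small noncoding, mitochondrially encoded or globin genes left out, the replicate number as a block, the 6 libraries alone, each library left out and DESeq2 1.42.0. Replicate numbers did not pair the libraries. Some genes that the rule named are not reported here.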

Additional observations from a re-analysis of the deposited data

How the results depend on the processing

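All 72 alternative values of the counts of genes that rose or fell, in all or at least 2-fold, were within 1.5 times the reported ones, and so were 782 of 808 counts of list members; of 4145 values for 232 named genes, 4048 kept their direction and side of the threshold. Of the other list counts, those below moved with the fit, the filter or a library. Without E10.5 replicate 2, the log2 changes of Rn7sk, Rpph1, Rps14 and mt-Nd3 turned from negative to positive (1.449, 1.102, 0.031 and 0.188). With only the remaining samples of the 2 ages filtered, scaled and fitted, those of Rn7sk, Rpph1 and mt-Nd3 were 1.417, 1.069 and 0.156. In that last fit, chosen after seeing the data, 9 trabeculation, 23 respiratory, 9 cardiomyocyte and 4 platelet genes rose and 16 G2/M and 7 ribosomal protein genes fell. With only the 6 samples fitted, 8 trabeculation, 5 respiratory, 5 neural crest and 4 platelet genes rose, and 15 G2/M, 6 mitochondrially encoded and 4 ribosomal protein genes fell. The stricter filter left 5 foregut endoderm and 1 skeletal muscle progenitor genes that rose, leaving out mitochondrially encoded and globin genes left 3 red cell genes that rose, and counting protein-coding genes only, also chosen after seeing the data, left 0 small noncoding genes; fewer genes were tested in each. Leaving out each library in turn gave 5 to 9 cardiomyocyte, 9 to 23 respiratory, 8 to 14 trabeculation and 1 to 3 platelet genes that rose, and 6 to 27 ribosomal protein, 6 to 12 mitochondrially encoded and 1 to 3 small noncoding genes that fell, and log2 changes of -0.421 to 1.449 for Rn7sk, -0.598 to 1.102 for Rpph1, -0.99 to 0.031 for Rps14 and -1.976 to 0.188 for mt-Nd3. The cause of the other shifts was not tested. With the replicate block 6043 genes rose and 4709 fell; same-numbered libraries deviated together only with correlations of 0.0342, 0.0189 and 0.0077, so the numbers were not taken as pairs. The share of calls that were higher was 56.0% and fell to 48.7% with only the 6 samples fitted. Depth limited the genes with 3 or fewer counts in an age to ratios or bounds.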
